A study of Mus musculus with 8 samples.

Results

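The data are RNA sequencing counts of naive CD8+ T cells, the resting precursors of cytotoxic effector cells, from male C57BL/6 mice. This section compares 2 groups of 8-week libraries, the columns numbered S3 to S5 and the columns numbered S6 to S8. Each group has 3 libraries, 1 labelled WT (S3 and S6) and 2 labelled Furin KO (S4 and S5, S7 and S8). The contrast holds 6 of the 8 libraries in all, and the other 2, S1 (WT) and S2 (Furin KO), came from mice of 7 weeks. The labels give no treatment, batch or day that separates S3 to S5 from S6 to S8. The sources used here also do not give the Furin allele, the driver of any Cre, or whether each library is 1 mouse. Furin is a protease that cleaves precursor proteins in the secretory pathway. Spleen and lymph node cells were the source; CD8a+ cells were enriched magnetically and naive cells then sorted by flow cytometry.

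The 2 groups were clustered from these same counts, by the chi-square distance between libraries over all genes. Pairs of libraries within a group had a chi-square per degree of freedom of 8.94 to 13.9 (6 pairs), and pairs across groups 14.7 to 22.5 (9 pairs). Every gene therefore took part in the choice of groups, so all differences between S3 to S5 and S6 to S8 are given as a description, without a test. Only genotype, which is balanced across the groups, and its interaction with the group were tested. A gene was counted as apart where the 3 libraries of one group all lay above the 3 of the other and the fitted fold was at least 2.

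Total counts were 18641969 to 20944639 in S3 to S5 and 11308220 to 21040431 in S6 to S8, with S8 the shallowest. S8 also stood alone on the first principal component, at 58.0, with S6 and S7 at -0.56 and -2.74 and S3 to S5 at -24.0 to -14.3. Without S8, Fos still differed by 2.57 on the log2 scale and Fosb by 5.03, where all 6 libraries give 2.57 and 4.84. Mitochondrially encoded genes took 2.46% to 3.21% of counts in S3 to S5 and 2.35% to 3.22% in S6 to S8. Cd8a stood at 1707 to 1944 CPM (a gene's counts scaled to a common library size) in S3 to S5 and 1504 to 1739 CPM in S6 to S8, and Tcf7, a factor of naive T cells, at 2284 to 2514 and 2081 to 2227 CPM. Cd44, high on antigen-experienced cells, was at most 2.73 CPM in these 6 libraries. Furin itself stood at 66.8 CPM in S3, 86.5 in S4, 62.4 in S5, 66.9 in S6, 57.9 in S7 and 76.8 in S8. Against the WT libraries, those labelled Furin KO differed by 0.08 on the log2 scale (SE 0.14, adjusted p = 1 by edgeR), so its level does not check the labels. Which part of the gene the allele removes is not given in the sources used here.

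Immediate early genes are transcribed within minutes of a signal, without new protein synthesis, and their messenger RNAs are short-lived. Their products include the FOS and JUN proteins, which pair to form the transcription factor AP-1. Others shut the signal down again, such as the dual-specificity phosphatases that inactivate MAP kinases and the protein ZFP36, which binds AU-rich elements in messenger RNAs and recruits the decay machinery. In T cells this program follows receptor engagement, and it is also a general response to stress and handling.

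Across all genes tested the 2 groups were close, and differences of 2-fold at well-expressed genes were few and lay on the higher side. Of 12139 genes tested, 133 (1.1%) were apart and higher in S6 to S8, and 86 (0.708%) were apart and lower. The lower and upper quartiles of the log2 difference were -0.16 and 0.16, and 6073 genes lay above 0 against 6066 below. At any fold, the groups did not overlap in 1090 genes (8.98%) that were higher and 1169 genes (9.63%) that were lower. Among the 8335 genes with a mean of at least 10 CPM, 16 were apart and higher in S6 to S8 and 0 were apart and lower, or 1 to 2 lower when 1 library was left out. At any fold the balance was the other way at that level, with 820 genes higher without overlap and 953 lower. The low-level genes that made up the rest of both counts depended on the filter, with 323 higher and 228 lower when no gene was filtered out.

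**Figure D1:**
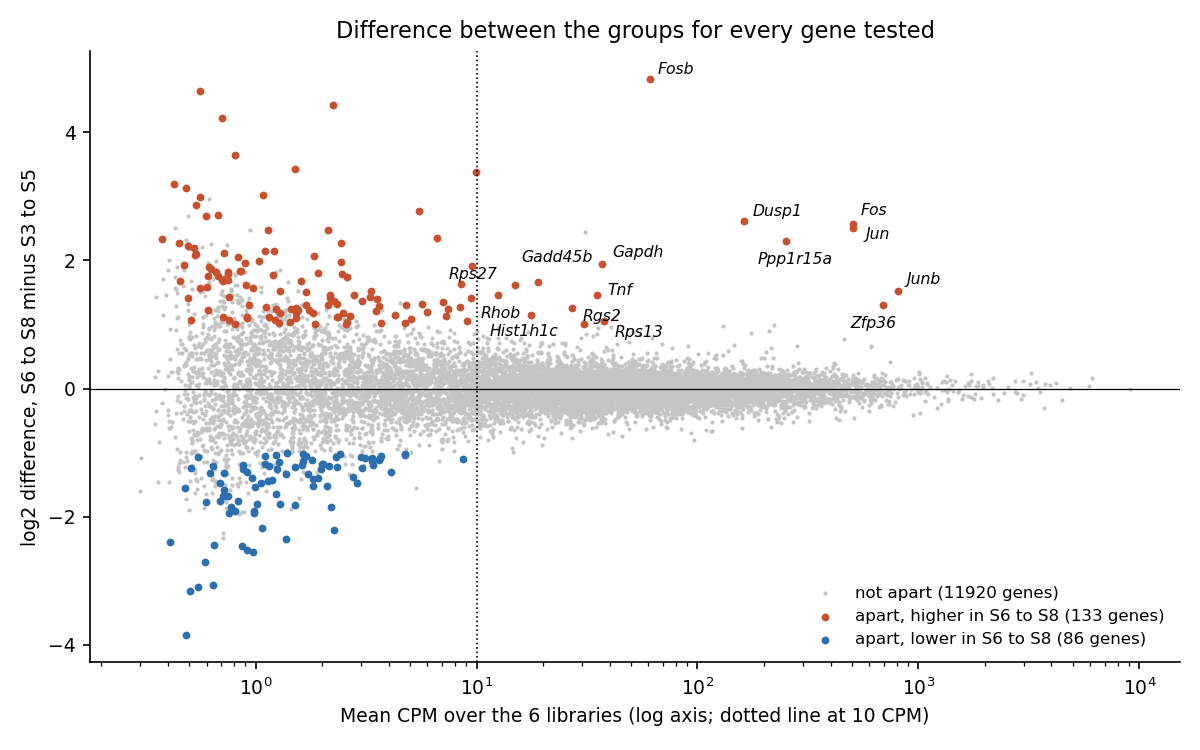
Log2 difference (S6 to S8 minus S3 to S5, vertical axis) against mean CPM over the 6 libraries (horizontal, log axis) for each of the 12139 genes tested. Orange points are the 133 genes apart and higher and blue points the 86 apart and lower. Right of the dotted line at 10 CPM, 16 orange points and 0 blue points remain.

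Fosb, Dusp1, Fos and Jun had the 4 largest differences among genes at 10 CPM or more. Fos, a subunit of AP-1, stood at 144 CPM in S3, 204 in S4 and 86.1 in S5, against 943 in S6, 799 in S7 and 849 in S8. The groups were far from overlapping, since the lowest library of S6 to S8 lay well above the highest of S3 to S5. The means were 145 ± 59.1 CPM (SD, n = 3) and 864 ± 73.2 CPM (SD, n = 3), a fitted log2 difference of 2.57 (SE 0.18).

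Jun (chr4:95049034-95052222, GRCm38), the partner of FOS in AP-1, stood at 131, 225 and 100 CPM in S3, S4 and S5 and at 977, 773 and 843 CPM in S6, S7 and S8. The order within each group was that of Fos, with S4 highest among S3 to S5 and S6 highest among S6 to S8. The log2 difference was 2.50 (SE 0.18).

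Fosb, a FOS relative that is nearly silent in resting cells, had the largest difference of any gene above 10 CPM. It stood at 2.92, 6.62 and 1.34 CPM in S3, S4 and S5, against 200, 81.2 and 71.6 CPM in S6, S7 and S8. S6, the WT library, lay well above S7 and S8. The log2 difference was 4.84 (SE 0.33).

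Of the regulators that limit signalling, Dusp1, a phosphatase that inactivates MAP kinases, stood at 42.5, 56.3 and 36.3 CPM in S3, S4 and S5 and at 333, 226 and 280 CPM in S6, S7 and S8 (log2 difference 2.62, SE 0.14). Ppp1r15a, which directs a phosphatase to the initiation factor eIF2alpha and so restores protein synthesis, stood at 91.8, 88.7 and 74.9 CPM against 462, 358 and 440 CPM (log2 difference 2.30, SE 0.10). Zfp36 (chr7:28376784-28380253), the decay factor for AU-rich messenger RNAs, stood at 410, 487 and 298 CPM against 1074, 937 and 956 CPM (log2 difference 1.31, SE 0.12). In all 3 genes every library of S6 to S8 exceeded every library of S3 to S5. S5 was lowest of the 6 libraries for Fos, Jun, Fosb, Dusp1, Ppp1r15a and Zfp36 alike.

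**Figure D2:**
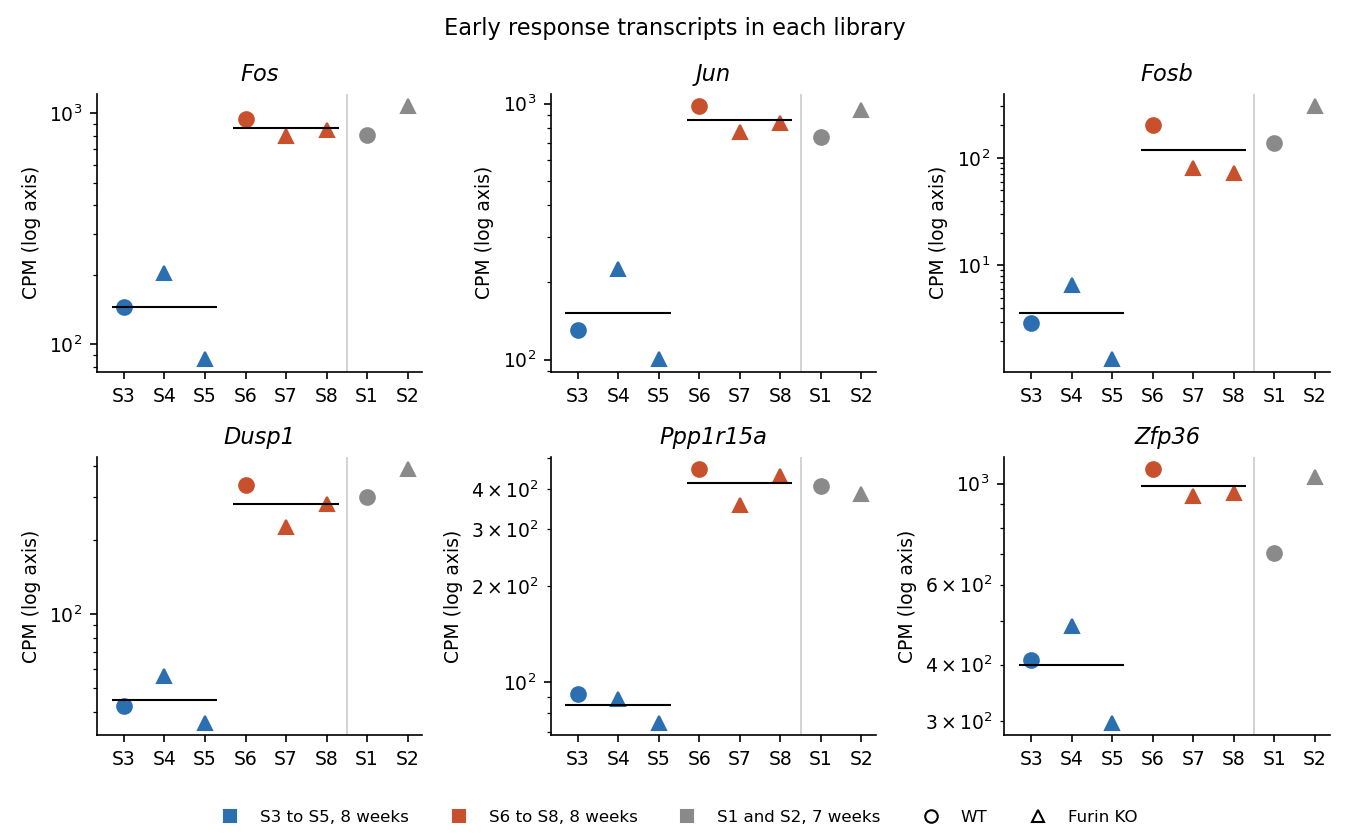
CPM (log axis) of Fos, Jun, Fosb, Dusp1, Ppp1r15a and Zfp36 in each of the 8 libraries; circles are WT and triangles Furin KO, and bars are the means of S3 to S5 and of S6 to S8 (n = 3 each). In all 6 panels the 3 libraries S6 to S8 sit above S3 to S5, and S1 and S2, which are not in the contrast, sit above S3 to S5 in each panel.

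Some markers of other cell types, at low levels, were also higher in S6 to S8. Myeloid markers summed to 5.37 to 7.61 CPM in S3 to S5 and 11.7 to 14.7 CPM in S6 to S8; of the 16, 8 had no count in these 6 libraries, among them Csf1r, and 13 were under 1 CPM. Cd68, a lysosomal glycoprotein of macrophages, made up most of the sum, at 4.38, 3.41 and 5.41 CPM in S3, S4 and S5 and 10.5, 9.46 and 11.4 CPM in S6, S7 and S8. Itgax, a marker of dendritic cells, stood at 0 to 0.626 CPM in S3 to S5 and 0.95 to 1.236 CPM in S6 to S8, and Col1a1, a collagen of stromal cells, at 0.678 to 1.15 and 1.52 to 2.64 CPM. The summed dendritic markers overlapped, at 6.00 to 9.31 and 7.08 to 10.98 CPM, as did the stromal and endothelial ones, at 228 to 241 and 217 to 254 CPM. Of the 10 dendritic markers 6 had no count in these 6 libraries, and Irf8 made up most of the sum. Of the 11 stromal and endothelial markers 7 had no count. Pecam1 made up most of their sum, at 227 to 240 CPM in S3 to S5 and 215 to 252 CPM in S6 to S8. B cell markers were more abundant, at a sum of 672 to 865 CPM in S3 to S5 and 717 to 837 CPM in S6 to S8, ranges that overlap. Ighm made up most of that sum, and 11 of the 17 B cell markers were under 1 CPM. The part of other cells in the early response values was not tested, and in bulk samples fewer cells of a type and less RNA per cell cannot be told apart.

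S1 and S2, which are 1 week younger and entered no fit, held these transcripts above S3 to S5 throughout, though not always within the range of S6 to S8. Fos stood at 807 CPM in S1 and 1074 CPM in S2, Jun at 739 and 942 CPM, and Fosb at 137 and 302 CPM. S2 exceeded all of S6 to S8 for Fos, for Fosb and for Dusp1 (386 CPM), and S1 lay below them for Jun and for Zfp36, at 703 CPM, with Zfp36 at 1032 CPM in S2. By distance on log2(CPM + 1), both S1 and S2 lay nearer to the mean of S6 to S8 for all 16 genes apart at 10 CPM or more. Over all 133 higher genes S1 lay nearer to S6 to S8 in 84 and S2 in 91, and over the 86 lower genes in 52 and 42. Age cannot be told apart from the S1 and S2 group.

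The difference ran the same way in both genotypes. For Fos, S6 minus S3 (WT) was 2.70 on log2(CPM + 1), and the mean of S7 and S8 minus the mean of S4 and S5 (Furin KO) was 2.62. For Fosb the WT value was 5.68 and the Furin KO value 4.19. All 133 higher and all 86 lower genes had the same sign in WT and in Furin KO, which the rule for being apart already fixes. The interaction of genotype and group was not called by edgeR for Fos, Jun, Fosb, Dusp1, Ppp1r15a or Zfp36. The fitted log2 interaction was -1.86 for Fosb, -0.59 for Jun and -0.52 for Dusp1. It was -0.21 for Fos, -0.12 for Zfp36 and -0.05 for Ppp1r15a. Each group holds 1 WT library, so the absence of a call does not show that the difference was of equal size.

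Promoters of these genes are shown because their transcripts differ together between the groups. Below are 4 of them, from RefSeq on GRCm38.p6, from 250 bases before to 50 bases after the annotated start, each 5′ to 3′ on the strand of its gene. Capitals mark matches, on either strand, to the cyclic AMP response element (CRE, TGACGTCA), its half-site (TGACG, also contained in the full CRE), the AP-1 element (TGANTCA), the TATA box (TATAAA) or the CArG box bound by serum response factor.
Fos, chr12:85473640-85473939, plus strand: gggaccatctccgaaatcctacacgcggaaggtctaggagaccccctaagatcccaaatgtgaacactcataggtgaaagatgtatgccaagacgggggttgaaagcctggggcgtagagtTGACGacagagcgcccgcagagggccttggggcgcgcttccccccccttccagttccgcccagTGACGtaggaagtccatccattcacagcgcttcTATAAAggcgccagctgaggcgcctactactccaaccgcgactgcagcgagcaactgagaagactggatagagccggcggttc
Fosb, chr7:19309996-19310295, minus strand: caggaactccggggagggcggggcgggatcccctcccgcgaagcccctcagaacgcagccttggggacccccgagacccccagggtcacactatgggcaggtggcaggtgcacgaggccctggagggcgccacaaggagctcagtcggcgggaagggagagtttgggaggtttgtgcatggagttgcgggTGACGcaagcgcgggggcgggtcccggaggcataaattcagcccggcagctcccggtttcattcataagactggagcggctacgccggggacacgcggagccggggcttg
Dusp1, chr17:26508423-26508722, minus strand: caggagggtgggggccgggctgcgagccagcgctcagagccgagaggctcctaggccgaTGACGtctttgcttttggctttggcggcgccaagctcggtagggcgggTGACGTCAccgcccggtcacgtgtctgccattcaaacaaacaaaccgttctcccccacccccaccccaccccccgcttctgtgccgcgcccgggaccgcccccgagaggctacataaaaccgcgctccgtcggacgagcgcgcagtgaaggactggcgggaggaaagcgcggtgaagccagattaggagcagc
Ppp1r15a, chr7:45526219-45526518, minus strand: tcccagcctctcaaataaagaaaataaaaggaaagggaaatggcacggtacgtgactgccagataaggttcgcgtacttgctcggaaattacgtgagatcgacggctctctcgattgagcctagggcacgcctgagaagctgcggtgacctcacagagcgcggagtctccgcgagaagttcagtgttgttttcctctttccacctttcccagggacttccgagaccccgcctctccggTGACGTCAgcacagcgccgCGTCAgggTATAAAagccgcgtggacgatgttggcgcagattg
The full CRE was found in Dusp1 and Ppp1r15a, 143 and 12 bases before the start. Fos held 2 half-sites, 129 and 66 bases before the start, and a TATA box at 33 bases, and Fosb held 1 half-site at 60 bases. Of the 16 genes apart at 10 CPM or more, 15 matched a RefSeq promoter. At any position in this window, 9 held the half-site, 6 TATAAA, 2 the full CRE, 1 (Zfp36) the CArG box and 0 the AP-1 element. TATAAA began 33 bases before the start in Fos, 29 in Tnf, 46 in Gadd45b and 136 in Frat2. In Junb it began at the start, and in Ppp1r15a 15 bases after it. Sequence outside the window was not searched. Over all 32851 promoters of this length, 20.8% held the half-site, 13.6% the TATA box, 1.79% the full CRE, 1.63% the CArG box and 7.81% the AP-1 element. A match describes letters only and is not evidence of binding.

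The 16 genes apart at 10 CPM or more fell into 3 kinds: immediate early and stress genes, transcripts with near-identical copies in the genome, and others. The first kind also held Junb, the main JUN family member in T cells, at 397, 516 and 320 CPM in S3, S4 and S5 and 1569.5, 1013.5 and 1045 CPM in S6, S7 and S8 (log2 difference 1.53, SE 0.14). Gadd45b, a growth arrest gene, stood at 9.04 ± 1.52 and 28.8 ± 6.78 CPM (SD, n = 3 each; log2 1.66, SE 0.20). Rhob, a small GTPase, stood at 6.68 ± 2.05 and 18.2 ± 2.27 CPM (log2 1.46). Rgs2, a brake on G protein signalling, stood at 15.5, 17.9 and 13.9 CPM against 49.6, 30.7 and 34.9 CPM (log2 1.25).

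Tnf, the gene of an inflammatory cytokine, stood at 19.1, 23.9 and 12.8 CPM in S3, S4 and S5 and 60.4, 48.9 and 44.9 CPM in S6, S7 and S8 (log2 1.46, SE 0.18). S1 and S2 were at 38.4 and 44.2 CPM. Frat2, an inhibitor of GSK-3, was the member nearest to the fold threshold, with a log2 difference of 1.004. Just outside it were the phosphatase gene Dusp2, at 0.995, Tnfaip3, an inhibitor of NF-kB, at 0.98, and Tob1, an antiproliferative adaptor of deadenylation, at 0.96.

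Among the 16, 4 shared over 5% of their 50-base windows with transcripts of other genes: Gapdh, Rps27, Rps13 and Hist1h1c. Gapdh, a glycolytic enzyme, stood at 17.7, 16.9 and 10.9 CPM against 61.5, 50.5 and 63.4 CPM (log2 1.95, SE 0.17), and 82.5% of its windows were shared. Rps27 and Rps13, proteins of the small ribosomal subunit, had log2 differences of 1.62 and 1.06, with 63.1% and 34.1% of windows shared. How the authors counted reads that match several genes is not given in the sources used here, so these values are uncertain. Hist1h1c, a linker histone, stood at 12.1, 10.6 and 10.2 CPM against 21.1, 22.05 and 30.1 CPM (log2 1.15), with 8.54% of windows shared.

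**Figure D3:**
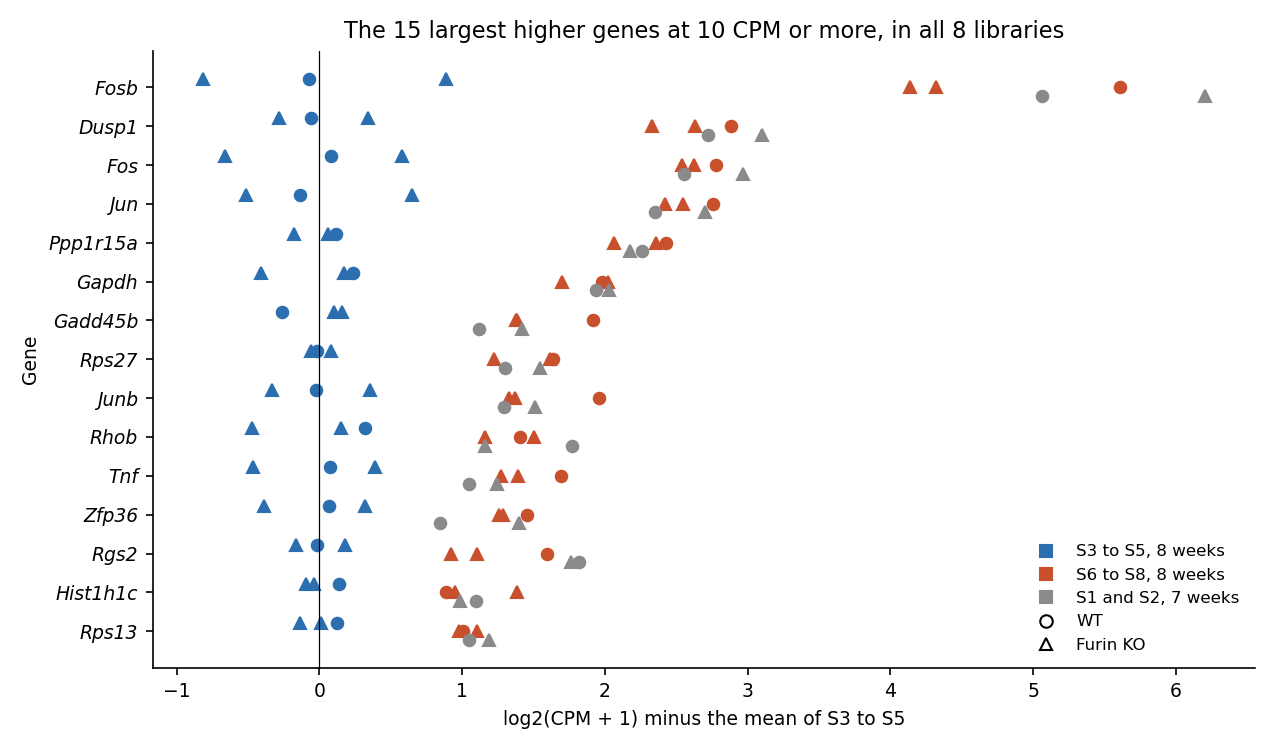
The 15 named genes with the largest difference at a mean of 10 CPM or more, as log2(CPM + 1) in each library minus the mean of S3 to S5 (horizontal axis); circles are WT, triangles Furin KO. In every row the S6 to S8 points lie right of the S3 to S5 points, and the S1 and S2 points lie among or beside those of S6 to S8.

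Gene lists gave the wider program, and they too were drawn up with earlier results of these data known. Counts are of the listed genes that passed the filter on low counts, which was 10 of 13 AP-1 factors, 30 of 31 other immediate early genes and 14 of 18 dual-specificity phosphatases. Of the 10 AP-1 factors, 4 were apart and higher (Fosb, Fos, Jun, Junb), beside 1.1% of all genes. Fosb, Fos and Jun are among the genes that mark the contrast, so this count is no independent value. The median log2 difference was 0.50, beside 0.00018 over all genes. Jund stood at 0.77 and did not reach the fold. Batf and Fosl2, other AP-1 members, were at -0.16 and -0.09, and Mafg at -0.49 had lower values in all of S6 to S8.

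Of 30 other immediate early genes, 25 lay above 0, 18 did not overlap and were higher (8.98% of all genes), 0 did not overlap and were lower, and 7 were apart (1.1% of all genes; median 0.50). The 7 were Plk2, Klf4, Nr4a2, Arc, Cebpb, Rgs2 and Rgs1. Klf4, a zinc finger factor linked to quiescence of T cells, stood at 0.574, 3.50 and 1.12 CPM in S3, S4 and S5 against 25.5, 17.7 and 11.2 CPM in S6, S7 and S8 (log2 3.38, SE 0.44). Plk2, a kinase of the polo family, stood at 0.156, 0 and 0.428 CPM against 5.28, 3.94 and 3.61 CPM. Members of the same list did not all differ. Egr1 stood at 0.08, Egr2 at -0.37, Egr3 at -0.36 and Nr4a3 at -0.35, all with overlapping groups, whereas Nr4a1 (NUR77) at 0.71 and Cd69, an early activation antigen, at 0.46 were higher in all of S6 to S8.

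Among 14 dual-specificity phosphatases 2 were apart and higher (1.1% of all genes), and the median was 0.02. They were Dusp1, which is among the genes that mark the contrast, and the low-level Dusp4. Dusp6, an ERK phosphatase, was at 0.69 without overlap, and Dusp7 at -0.22 was lower without overlap. Of 18 NF-kB subunits and inhibitors 0 were apart, and the median was 0.01. Without overlap, 2 were higher (8.98% of all genes) and 1 lower (9.63%). The higher ones were Tnfaip3, at 0.98, and Nfkbia, the inhibitor IkB-alpha and a target of NF-kB, at 0.47. The lower one was Nfkbie, at -0.21. The medians of the phosphatases, the NF-kB list and the decay adaptors, deadenylation, exosome and nonsense-mediated decay lists each changed sign when 1 library was left out, between -0.05 and 0.08.

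In RNA turnover the genes furthest from 0 were the adaptors Zfp36 and Tob1 (0.96). Of the listed genes only Zfp36 differed by at least 2-fold, and members of the core machinery differed by less. Of 18 messenger RNA decay adaptors, 1 was apart and higher (1.1% of all genes): Zfp36, which is among the genes that mark the contrast. Pum2, at -0.15, was the 1 that did not overlap and was lower (9.63% of all genes). Without overlap, 5 were higher (8.98% of all genes): Zfp36, Tob1, Zfp36l2 (0.66), Zfp36l1 (0.30) and Zc3h12a (0.27). Zfp36l2, a ZFP36 relative that restrains T cell activation, stood at 468, 444 and 495 CPM in S3, S4 and S5 and 883, 581 and 783 CPM in S6, S7 and S8. Of the deadenylation complexes (14 genes tested), decapping and 5′ decay (20), the RNA exosome (20) and nonsense-mediated decay (15), 0 genes were apart, and the medians ran from -0.03 to 0.02. Of the 14 deadenylation genes, 4 did not overlap and were lower (Cnot6l, Cnot2, Cnot1 and Cnot8, beside 9.63% of all genes). Another 2 were higher without overlap (Pan2 and Pan3, beside 8.98% of all genes). The member of these lists furthest from 0 was Dcp2, the decapping enzyme, at -0.53, and Cnot1, the scaffold of the CCR4-NOT deadenylase, was at -0.17.

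AU-rich elements are shown because ZFP36 proteins bind them. Below are 30-base windows at the first TATTTAT of the 3′ untranslated region (GENCODE M21 transcripts, GRCm38), with TATTTAT in capitals.
Fos: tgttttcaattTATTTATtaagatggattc
Dusp1: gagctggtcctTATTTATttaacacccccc
Ppp1r15a: tagtttcctatTATTTATTTATTTATTTAT
Zfp36: agtgggcccttTATTTATgacgactttatt
Tnf: cagcccccctcTATTTATatttgcacttat
Counting overlapping matches, Ppp1r15a carried 4 such elements, Tnf 8, Dusp1 and Zfp36 3 each and Fos 2. Among protein-coding genes at 5 CPM or more, 316 had 3 or more TATTTAT elements, and 4 of them (1.27%) were apart and higher: Zfp36, Ppp1r15a, Dusp1 and Tnf. Of these 316, 1 was apart and lower. Of the 6279 genes with none, 0.271% were apart and higher, of the 1681 with 1 element 0.357%, and of the 560 with 2 elements 0.179%, so the share did not run with the number of elements. Zfp36, Ppp1r15a and Dusp1 are among the 6 genes that mark the contrast, so the 1.27% is no independent value. The median log2 difference of those 316 genes was -0.07, and that of the 6279 genes 0.01. By length of the 3′ untranslated region, medians ran from 0.05 in the shortest bin to -0.08 in the longest. Whether the -0.07 goes with the elements or with length was not tested.

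Stress pathways differed from one another. Of 20 integrated stress response genes 15 lay above 0 (median 0.13). Ppp1r15a, which is among the genes that mark the contrast, was the 1 apart and higher (1.1% of all genes). Atf4, the main transcription factor of that response, stood at 219, 219 and 216 CPM in S3, S4 and S5 and at 370, 309 and 357 CPM in S6, S7 and S8 (log2 0.66, SE 0.08). Its target Ddit3 (CHOP) was at 0.17 with overlapping groups.

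Of 21 unfolded protein response genes 0 were apart, 7 did not overlap and were lower (9.63% of all genes) and 1 did not overlap and was higher (8.98%). The median was -0.10, and -0.06 without S3 and -0.05 without S6. The 7 were Hsp90b1, Sdf2l1, Pdia4, Pdia3, Canx, Calr and Edem1, chaperones and folding enzymes of the endoplasmic reticulum. The 1 higher was Hspa5 (BiP), at 0.39. Of 19 heat shock chaperones 0 were apart. Hsph1, an HSP110 chaperone, stood at 125, 133 and 167 CPM in S3, S4 and S5 and 96.1, 78.8 and 93.4 CPM in S6, S7 and S8 (log2 -0.66, SE 0.11). The heat shock median was 0.01 and became -0.24 without S3 or without S6, the WT libraries. With 1 WT library left, the model fits the group difference from the Furin KO libraries alone. The -0.24, like the -0.06 and -0.05 above, is therefore a value of the Furin KO libraries.

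Of 16 p53 targets 3 were apart and higher (1.1% of all genes). They were Gadd45a and Gadd45b, which also answer to stress, and Plk2, which is on the immediate early list as well. The median was -0.035, and it ran from -0.11 to 0.05 when 1 library was left out. Trp53inp1, Ccng1 and Zmat3 did not overlap and were lower, at -0.49, -0.31 and -0.33 (9.63% of all genes). All other members had overlapping groups, from Phlda3 at -0.49 to Gadd45g at 0.55.

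**Figure D4:**
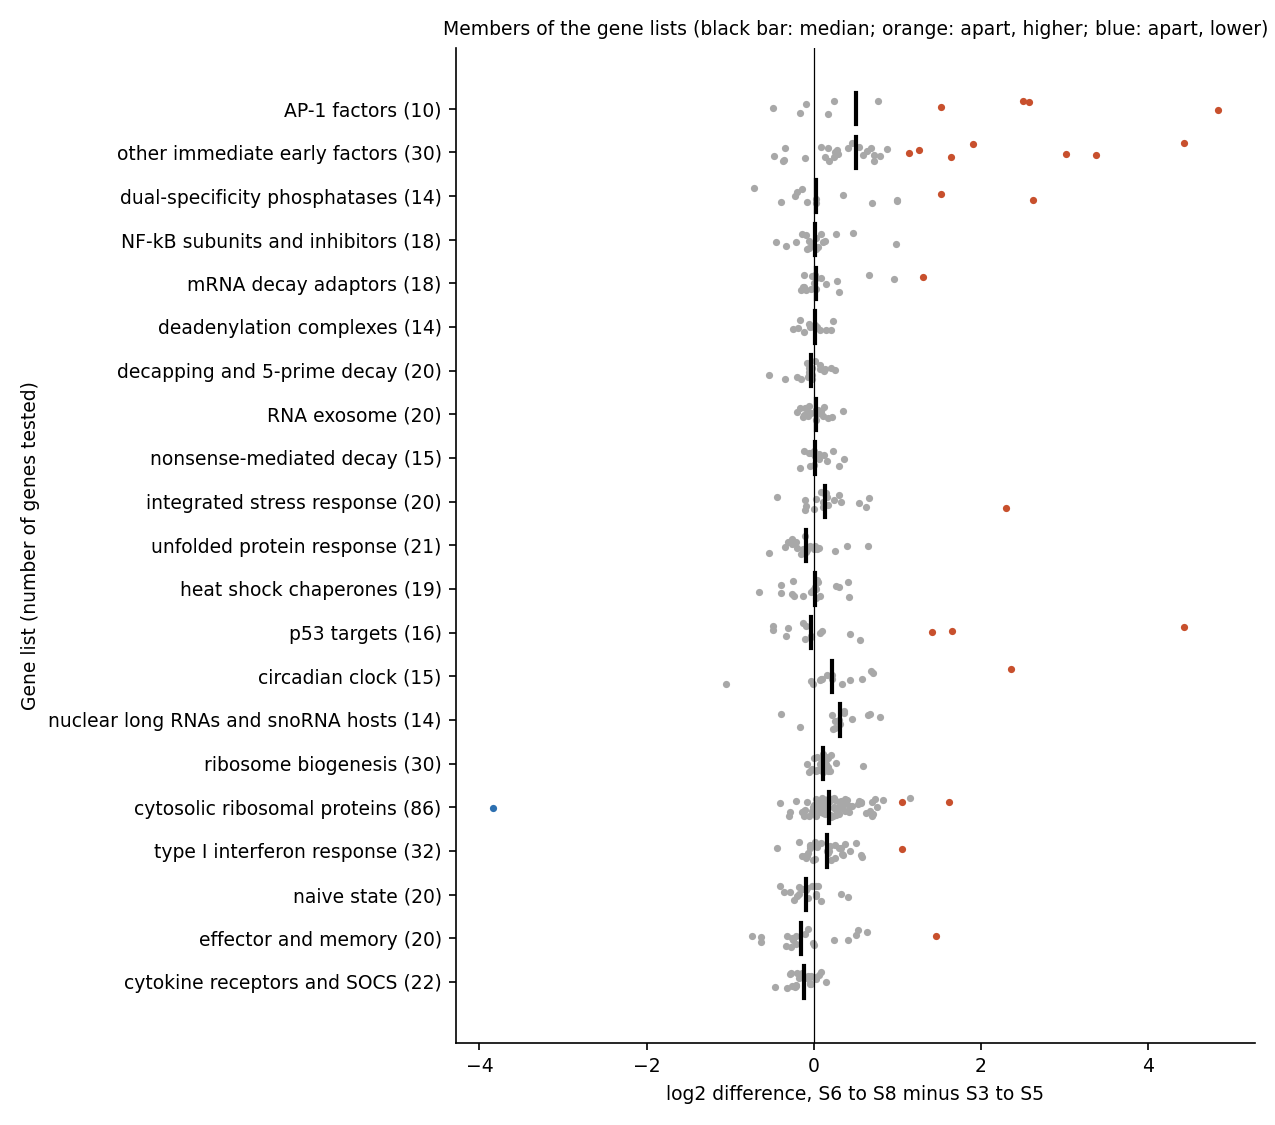
Log2 difference (S6 to S8 minus S3 to S5) of each tested member of 21 gene lists; the black bar is the list's median, and orange and blue points are members apart and higher or lower. AP-1 and other immediate early genes have the highest medians of those plotted (both 0.50), and the decay machinery lists sit around 0.

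Clock genes lay mostly above 0. Of 15 tested, 12 lay above 0, 5 did not overlap and were higher (8.98% of all genes), and 1 was apart (1.1% of all genes). The median was 0.21, and 0.13 without S4. Ciart, a repressor of the CLOCK and BMAL1 complex, stood at 3.08, 1.73 and 1.77 CPM in S3, S4 and S5 and 13.0, 9.31 and 10.7 CPM in S6, S7 and S8 (log2 2.36, SE 0.30). Nr1d1 (REV-ERB alpha) was at 0.71, Per2 at 0.57, Per1 at 0.43 and Cry2 at 0.33. Arntl and Clock, the activators of the cycle, were at 0.08 and -0.02. The labels give no time of day.

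Small nucleolar RNAs, which guide chemical modification of ribosomal RNA, took a larger share of counts in S6 to S8. They took 0.00673% to 0.00729% of counts in S3 to S5 and 0.0102% to 0.0117% in S6 to S8, and 0.0119% and 0.0132% in S1 and S2. Of all 36 tested, 26 lay above 0 and 10 below, with a median of 0.77. Of these, 9 were apart and higher (1.1% of all genes). Snord91a, at -3.10, was the 1 apart and lower (0.708% of all genes). Of the 14 at 2 CPM or more, 13 lay above 0 and 7 were apart and higher (median 1.03). This class was chosen after its values were seen. Snora31 stood at 3.13, 4.89 and 3.91 CPM in S3, S4 and S5 and 9.38, 10.6 and 10.3 CPM in S6, S7 and S8.

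Of 14 nuclear long noncoding RNAs and host transcripts of such RNAs, 12 lay above 0, 8 did not overlap and were higher (8.98% of all genes) and 0 lower (median 0.31). All 8 were hosts (Snhg1, Snhg5, Snhg6, Snhg8, Snhg12, Snhg15, Gas5 and Zfas1), with Snhg8 at 0.79 and Snhg1 at 0.68. The host Snhg20 at -0.16 and the nuclear RNA Kcnq1ot1 at -0.39 lay below 0 with overlapping groups. Of 30 ribosome biogenesis genes 25 lay above 0 and 7 did not overlap and were higher (8.98% of all genes). Their median was 0.11, and 0.05 without S3 and 0.06 without S6, both fitted from the Furin KO libraries alone. Of 86 ribosomal protein genes 72 lay above 0 and 24 did not overlap and were higher (8.98% of all genes). Rps27 and Rps13 (above) were the 2 apart and higher (1.1% of all genes). Rpl39l, at a mean of 0.487 CPM, was the 1 apart and lower (0.708% of all genes).

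No gene at 10 CPM or more was apart and lower, and the lower side consisted of modest shifts. The nearest was the pseudogene Hmgb1-ps8 (log2 -0.99), and the nearest protein-coding gene was Nrp2, a semaphorin receptor, at 25.7, 16.98 and 14.9 CPM in S3, S4 and S5 and 11.2, 8.89 and 9.51 CPM in S6, S7 and S8 (log2 -0.93, SE 0.19). Serpinb9, an inhibitor of granzyme B, was at -0.83 and Prf1 (perforin) at 113, 102 and 90.6 against 65.2, 70.4 and 61.0 CPM (log2 -0.63, SE 0.11). At 1.5-fold, 73 genes at 10 CPM or more were higher and 42 lower.

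Among protein-coding genes the difference was weakly related to transcript composition. Among 8856 protein-coding genes at 5 CPM or more, the log2 difference had a Spearman correlation of 0.29 with exon GC content across genes (0.25 without S8), and the medians of 5 successive bins by GC ran from -0.08 to 0.08. The correlation was 0.09 in the single WT pair and 0.32 in the Furin KO libraries. With the length of the 3′ untranslated region the correlation was -0.26 over 8836 genes (-0.27 without S8, -0.18 in WT and -0.23 in Furin KO). With exon length it was -0.07 (-0.08 without S8, -0.16 in WT and -0.01 in Furin KO). Genes share the same libraries and are not independent replicates, so no test is given.

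**Figure D5:**
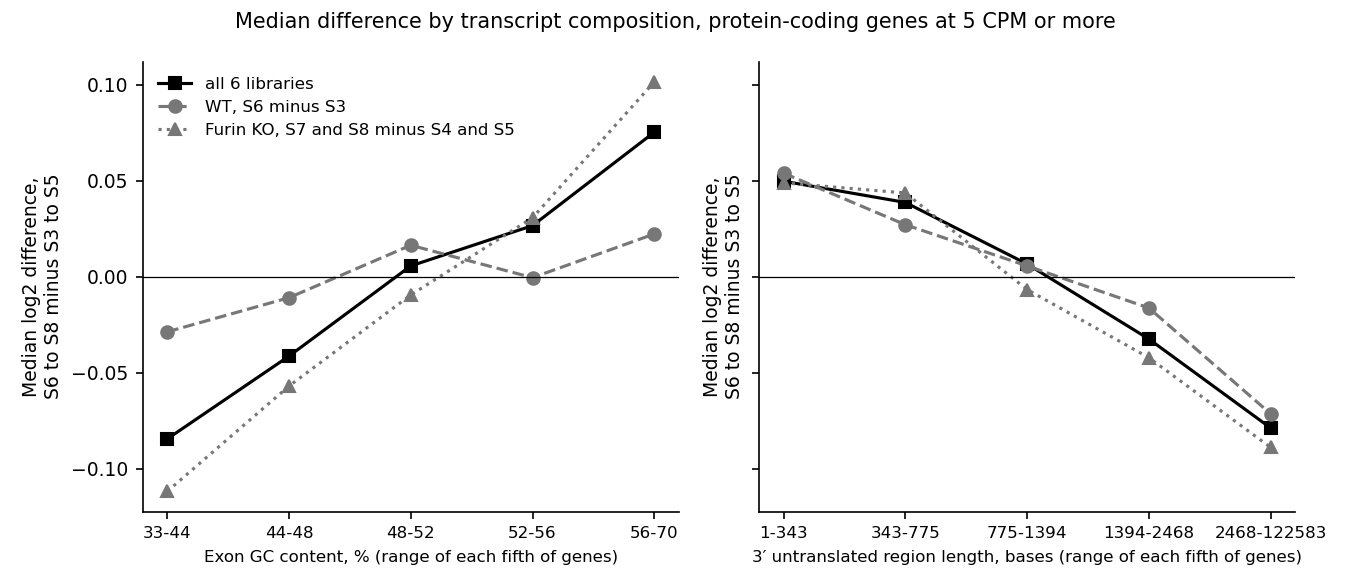
Median log2 difference (S6 to S8 minus S3 to S5) of protein-coding genes at 5 CPM or more, in 5 equal bins by exon GC content (left) and by length of the 3′ untranslated region (right); squares use all 6 libraries, circles WT alone and triangles Furin KO alone. By GC the medians run from -0.08 to 0.08, and they are flatter in WT; by length they run from 0.05 to -0.08.

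Genotype was tested within the 6 libraries with the group as a covariate, with the quasi-likelihood test of edgeR and p-values adjusted by Benjamini-Hochberg. Of 12139 genes, 10 (0.0824%) were higher in Furin KO than in WT libraries and 1 (0.00824%) was lower, and 454 had an unadjusted p under 0.05. None of Fos, Jun, Fosb, Dusp1, Ppp1r15a and Zfp36 was called. Ly6a, a surface protein of activated lymphocytes, stood at 24.1 and 27.1 CPM in the WT libraries S3 and S6 and at 92.8, 97.7, 73.6 and 53.5 CPM in the Furin KO libraries S4, S5, S7 and S8 (log2 1.60, SE 0.17, adjusted p = 3.16e-05). Socs3, an inhibitor of cytokine signalling, stood at 231 and 231 CPM in WT and 554, 361, 456 and 425 CPM in Furin KO (log2 0.96, SE 0.12, adjusted p = 0.000505). Tspan9, a tetraspanin, was lower, at 69.6 and 47.7 CPM in WT against 23.7, 15.2, 18.5 and 16.997 CPM (log2 -1.64, SE 0.17, adjusted p = 3.16e-05). These 3 calls held under all 14 alternatives, whereas the other 8, among them Tbx21 and Itgb3, were lost under at least 1 of them. The labels do not say whether libraries are separate mice, so the p-values reflect spread among samples only, and that spread may be technical.

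The interaction asked whether the genotype difference was the same in both groups, and 4 genes (0.033%) were called, with 533 at an unadjusted p under 0.05. Each group holds only 1 WT library, so each call rests on S3 and S6, and the groups themselves came from these counts. Malat1, a nuclear long noncoding RNA, stood at 780 CPM in S3 (WT) and 394 and 312 in S4 and S5 (Furin KO), but at 546 in S6 (WT) and 1028 and 609 in S7 and S8 (interaction log2 1.73, SE 0.24, adjusted p = 0.000693 by edgeR). Slc15a2, a peptide transporter, had 1 count in S3 and 931 in S6, the WT libraries (adjusted p = 0.00319 by edgeR). Rnf157 and Ddit4 were the other two (adjusted p = 0.0409 each), and both lost the call without S5, S7 or S8.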

How the data were processed

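The authors deposited raw whole-number counts per gene, 1 column per library, matched to samples by title. Per the submitters' processing notes, FastQC, Trim Galore, STAR and DESeq2 1.24.0 were named, with build GRCm38; the sources used here name no counter, annotation or strand setting. Symbols came from GENCODE M21 (55480 of 55573 IDs matched). From the counts, edgeR 4.0.16 (limma 3.58.1, R 4.3.3) used TMM factors, filterByExpr by group and a model of genotype and group. CPM are scaled counts. Groups, gene lists and genes of interest were chosen with earlier results of these data known. Named genes were the 6 early response genes and Furin, then up to 15 per direction with the largest difference among genes apart at a mean of 10 CPM, up to 5 members of each list at 2 CPM, and up to 6 called genes per direction for genotype and for the interaction. Other genes were named after their values were seen. The model was tested on simulated data. Alternatives were RLE factors, library size alone, other filters, DESeq2 1.42.0, limma-voom, other covariates, all 8 libraries, Furin KO libraries alone, mitochondrial genes and receptor segments left out, other folds, and each library left out. Limits to 10 CPM and to genes without shared windows were added after seeing the data.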

Additional observations from a re-analysis of the deposited data

Results flagged for a closer look

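The interaction of genotype and group was called in 4 genes by edgeR, adjusted over all genes. These calls are given as values only: the groups were formed from these same counts, each group has 1 WT library, and each call was lost under at least 1 alternative. The interaction was 1.73 on the log2 scale for Malat1, -8.43 for Slc15a2, -2.97 for Rnf157 and -1.10 for Ddit4. For Slc15a2 the fitted value rests on 1 count in S3 against 931 counts in S6, the other WT library, and is no measure of size. Slc15a2 stood at 119 CPM in S1 and 82.8 CPM in S2.

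Among the 15 genes called for genotype or for the interaction, 2 had 1 library far from the other 3 over the 4 Furin KO libraries of 8 weeks. Slc15a2 had a gap of 0.838 of its whole range, from S8 at 85.5 CPM down to 22.7 CPM in S4. Itgb3, an integrin chain, had a gap of 0.87 of its range, from S5 at 52.0 CPM to S7 at 37.3 CPM. Chance marks about 1 in 20 such groups.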

How the results depend on the processing

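The counts of genes apart moved with the filter and the number of libraries, while Fos, Jun, Fosb, Dusp1, Ppp1r15a and Zfp36 kept their sign under all 16 alternatives each. Against 133 higher and 86 lower genes, there were 323 and 228 with no filter, 57 lower with a CPM of at least 1 in 3 libraries, 201 and 133 with all 8 libraries, 375 and 256 in Furin KO libraries alone, 287 and 202 at 1.5-fold, 34 and 13 at 4-fold, and 16 and 0 at a mean of 10 CPM. Leaving out 1 library gave 207 to 296 higher and 167 to 251 lower, as fewer libraries then have to be apart. Without S8, 207 were higher and 167 lower. Without S3 or S6, the WT libraries, the fitted difference between the groups comes from the Furin KO libraries alone. The log2 difference ran from 2.28 to 2.96 for Jun and from 4.23 to 5.99 for Fosb, both highest without S4. The median of all genes was 0.02 with no filter and closer to 0 under every other setting run.

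For genotype, against 10 higher and 1 lower genes, there were 21 and 15 with no filter and 2 higher without the group term. The lower genes numbered 2 with a CPM of at least 1 in 3 libraries, 3 with DESeq2, 4 with limma-voom and 2 without receptor segments and mitochondrial genes. Leaving out 1 library gave 3 to 14 higher and 1 to 3 lower. For the interaction, against 1 higher and 3 lower, there were 7 and 15 with no filter, 4 and 10 with limma-voom, 1 lower with DESeq2 and 1 lower with library size alone. Leaving out 1 library gave 1 to 7 higher and 2 to 18 lower; without S3 or S6 the interaction could not be fitted. Malat1 lost its call with DESeq2 (adjusted p = 1), and Slc15a2 with DESeq2 (0.872) and limma-voom (0.556). The cause was not tested. No paired analysis was possible because the groups share no replicate number. S8, with 11308220 counts, limits genes of few CPM most.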

Other observations

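Type I interferon response genes differed little between the groups. Of 32 tested, 21 lay above 0. Irf7, Oasl1, Rsad2 and Mx2 were the 4 that did not overlap and were higher (8.98% of all genes). Of these, Mx2 was apart (1.1% of all genes), and 0 genes did not overlap and were lower (9.63%). The median was 0.16, and 0.01 without S7 and 0.07 without S4.

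Of 20 genes of the naive state, 13 lay below 0 and 7 above, 5 did not overlap and were lower (9.63% of all genes) and 2 higher (8.98%). The median was -0.09, and -0.03 without S5. Ccr7, the lymph node homing receptor, stood at 513, 522 and 532 CPM in S3, S4 and S5 and at 408, 403 and 411 CPM in S6, S7 and S8, and at 387 and 396 CPM in S1 and S2. Ccr9 was at -0.40, S1pr1, the egress receptor, at -0.28 and Klf2, the factor that drives S1pr1, at 0.41, all without overlap. Of 22 cytokine receptors and SOCS genes, 5 did not overlap and were lower (Tgfbr1, Il6ra, Tgfbr2, Stat3 and Il2rb; 9.63% of all genes) and 0 higher (8.98%).

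Other stress programs differed little. Of 11 NRF2 and metal response genes 1 was apart and higher (Nqo1), with a median of 0.05. Of 18 hypoxia response genes 1 was apart and higher (Hk2, which also belongs to glycolysis), with a median of -0.00. Of 9 glucocorticoid response genes 0 were, with a median of -0.12. Over all genes 1.1% were apart and higher. Of 22 cholesterol synthesis genes 4 did not overlap and were lower (Dhcr7, Sc5d, Hmgcs1 and Tm7sf2; 9.63% of all genes), and 0 higher (8.98%).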
